A study of Mus musculus with 6 samples.

Results

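Cyp2a and Cyp2b are sister subfamilies of cytochrome P450, haem enzymes of the endoplasmic reticulum that put oxygen into drugs, plant compounds and steroids. The 7 genes described here are Cyp2b9, Cyp2b10, Cyp2b13, Cyp2a4, Cyp2a5, Cyp2a12 and Cyp2a22, taken by symbol from the 23474 genes of a mouse liver expression table, low ones included. Liver mRNA was sequenced from male C57BL/6J mice at 17 weeks of age. From 5 weeks of age the mice, housed singly, had eaten either a high-fat diet (HFD) or, in the group called BT, that diet with an extract of the herbal medicine Bangpungtongseong-san at 1.5% of its weight, for 12 weeks, so the high-fat diet is common to both groups. The study split 20 mice into 2 groups of 10, and 3 libraries per diet were analysed. Whether each library came from a single mouse or a pool is not in the labels, so a p-value here covers only how these libraries vary. The codes of all HFD libraries share a letter that no BT code has, and an effect of library set and one of diet cannot be told apart.

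Cyp2b10 is the standard reporter of the nuclear receptor CAR (encoded by Nr1i3), which drug-like compounds such as phenobarbital activate together with the related receptor PXR (Nr1i2). Cyp2a5, the mouse coumarin hydroxylase that also oxidises nicotine, responds to CAR too, but also to other stress signals in liver. Cyp2b9, Cyp2b13 and Cyp2a4 are known as female-predominant genes of mouse liver, held low in males by the pulsed pattern of growth hormone release, and Cyp2a4 encodes a testosterone hydroxylase. Cyp2a12 encodes another steroid hydroxylase of liver, and Cyp2a22 is its close relative.

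All 7 genes lie in one cluster on chromosome 7, between 25897620 and 27037375 (GRCm38), a span of 1.14 Mb. Along the chromosome the order is Cyp2b10, Cyp2b13, Cyp2b9, Cyp2a4, Cyp2a5, Cyp2a22 and Cyp2a12, all on the plus strand except Cyp2a22. Among the members, close copies sit next to each other: Cyp2b13 beside Cyp2b9, Cyp2a4 beside Cyp2a5, and Cyp2a22 beside Cyp2a12. The bases just upstream of the start sites were nearly the same within the first 2 of these pairs, although the genes' levels were far apart, so those pairs are shown here. RefSeq (GRCm38.p6) gives the following plus-strand bases, with capitals where the aligned base differs from the partner. For Cyp2a4 (chr7:26306942-26307151) and Cyp2a5 (chr7:26835089-26835298) they run from 250 to 41 bases upstream of the start, with 4 mismatches over 209 aligned bases.
Cyp2a4: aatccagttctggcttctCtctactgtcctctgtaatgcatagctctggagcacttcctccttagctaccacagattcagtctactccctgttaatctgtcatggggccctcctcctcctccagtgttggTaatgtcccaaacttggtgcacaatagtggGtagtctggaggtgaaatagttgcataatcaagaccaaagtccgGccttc
Cyp2a5: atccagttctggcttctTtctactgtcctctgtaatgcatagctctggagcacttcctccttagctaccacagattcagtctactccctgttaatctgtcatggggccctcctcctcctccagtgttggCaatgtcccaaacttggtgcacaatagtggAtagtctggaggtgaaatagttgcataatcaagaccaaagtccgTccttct
For Cyp2b9 (chr7:26173159-26173298) and Cyp2b13 (chr7:26061245-26061384) the stretch runs from 250 to 111 bases upstream, with 2 mismatches over 140 bases.
Cyp2b9: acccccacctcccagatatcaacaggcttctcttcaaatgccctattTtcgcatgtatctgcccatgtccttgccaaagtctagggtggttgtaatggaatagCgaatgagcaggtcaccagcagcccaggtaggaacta
Cyp2b13: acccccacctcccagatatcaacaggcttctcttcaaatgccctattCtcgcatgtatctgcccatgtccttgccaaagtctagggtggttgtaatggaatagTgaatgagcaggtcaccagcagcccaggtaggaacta

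The printed stretches end before the first annotated exon base of either gene of a pair, so the rest of the 250 bases can hold transcribed sequence. Over the full 250 bases upstream of the RefSeq starts, Cyp2b9 and Cyp2b13 shared 99.2% of aligned bases and Cyp2a4 and Cyp2a5 98.4%. Cyp2a12 and Cyp2a22 shared 89.96%, and Cyp2b10 shared 74.6% with either of the other Cyp2b genes. Motifs were searched there on both strands in the members and in all 32851 promoters of the RefSeq table. The TATA box TATAAA stood in all 4 Cyp2a members, 28 bases upstream in Cyp2a4 and Cyp2a22, 29 in Cyp2a5 and 39 in Cyp2a12. GENCODE M21 starts Cyp2a5 at 26835305, before this match, so there the match lies inside the annotated gene. No Cyp2b member held it, and 12.4% of all promoters did. TTGCATAA, a C/EBP-type motif chosen after the sequences were seen, stood in Cyp2a4, Cyp2a5 and Cyp2b10 and in 0.694% of all promoters. No member held the STAT5-type TTCNNNGAA, present in 7.02% of promoters, or the DR4 repeat, a direct repeat that CAR and PXR can bind, present in 0.0152% when searched without mismatch. These letters describe the window only and say nothing of where a factor binds.

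**Figure D1:**
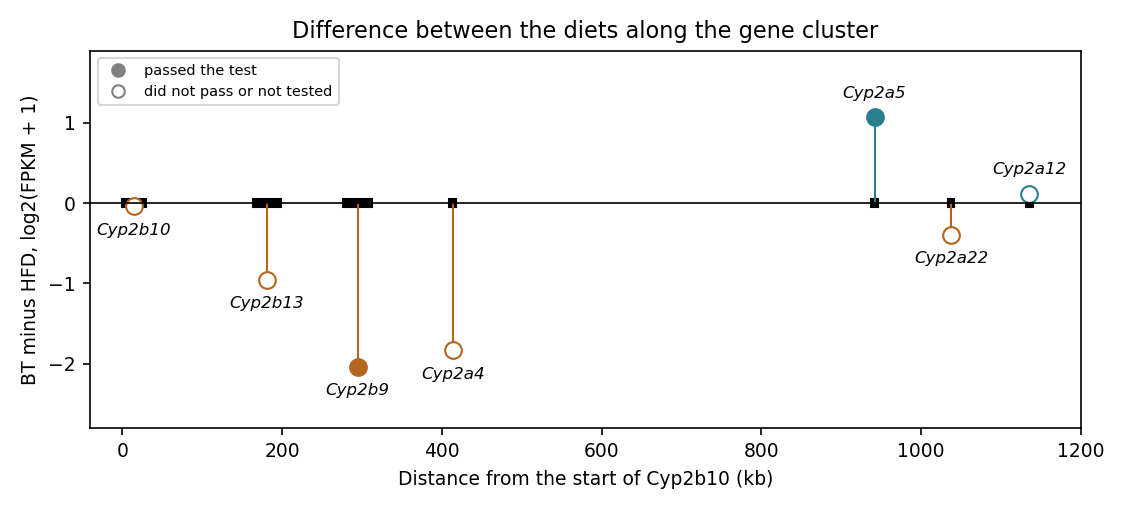
Position along the chromosome in kb from the Cyp2b10 start against each member's difference on the log2(FPKM + 1) scale, BT minus HFD, with genes as black bars on the 0 line and filled circles for those that passed the test. Cyp2a5 (1.07) lies between Cyp2a4 (-1.84) and Cyp2a22 (-0.39) in a span of 1.14 Mb.

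Coding sequences were as close as the upstream bases in one pair and less so in the other. The coding bases of Cyp2a4 and Cyp2a5 were 98.5% identical, with 23 mismatches over 1485 bases. Windows of 50 bases were taken from whole transcripts, untranslated ends included. Of those of Cyp2a4, 36.1% occurred unchanged in Cyp2a5. Cyp2a12 and Cyp2a22 were 97.0% identical, and Cyp2b9 and Cyp2b13 92.7%. Cyp2b10 was 87.7% identical to Cyp2b9. No 50-base window was shared between any Cyp2a and any Cyp2b member. Reads from the shared windows cannot be assigned by sequence alone, so the levels of Cyp2a4 and Cyp2a5, and of Cyp2a12 and Cyp2a22, are uncertain to that extent, and a small error in Cyp2a5 would be large for Cyp2a4. The same holds for Cyp2b13, of whose windows 10.8% occurred in Cyp2b9 (and which held 8.23% of those of Cyp2b10), since Cyp2b9 was far more abundant.

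Levels are in FPKM, a count of fragments divided by the length of the transcript and by the size of the library, so levels can be set beside each other between genes. The libraries hold an estimated 13.8 to 15.8 M fragments, a rough value read from the smallest FPKM. All 8 hepatocyte markers were present in the libraries, except that Alb is listed at 0 in HFD replicate 3, and kidney markers reached at most 0.0263 FPKM. Adipocyte markers summed to 54.9 to 195 FPKM in HFD and 144 to 218 in BT, mostly Cfd. Adipoq was 1.40 in HFD replicate 1 and at most 0.198 elsewhere, and Plin1 was 0.399 there and 0 elsewhere. Pancreas markers, all of it Cela1, summed to 5.09 to 6.25 in HFD and 2.45 to 4.09 in BT. The source of these signals was not tested. In bulk liver, fewer cells of a type and less RNA per cell cannot be told apart.

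The test took genes averaging 1 FPKM or more over the 6 libraries, which 5 of the 7 members reached. Cyp2b10 and Cyp2b13 did not. Between the diets 1 member fell (Cyp2b9) and 1 rose (Cyp2a5), while 3 did not pass the threshold of 0.05 on the adjusted p. Over all 10476 genes tested 13.3% passed, 6.01% higher and 7.33% lower in BT. The median log2 change of the 5 tested members was -0.39, beside 0.07 over all genes tested. Values of the diets did not overlap in 2 of the 5 tested members and in 3 of all 7, and they did not overlap in 39.3% of all genes tested. The share of tested members without overlap was thus near the share of all genes.

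**Figure D2:**
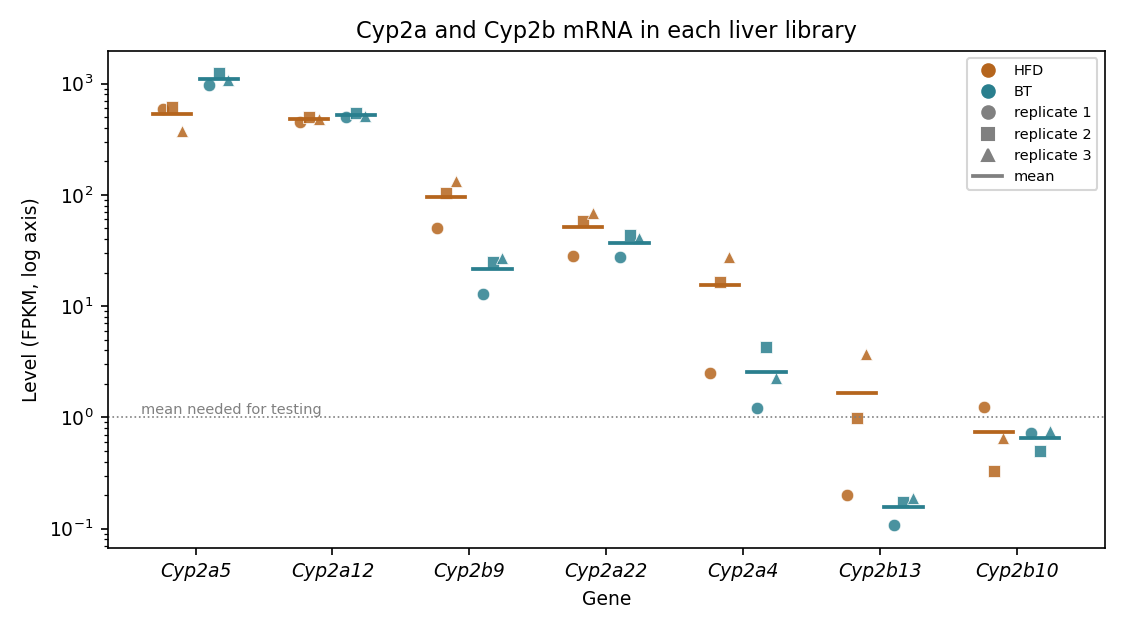
FPKM of the 7 members in each library (log axis), HFD and BT side by side, with points for libraries, bars for the group means, and a dotted line at the mean of 1 FPKM needed for testing. Cyp2a5 is higher in every BT library (965 to 1234) than in any HFD library (377 to 621), and Cyp2b9 is lower (12.97 to 26.9 against 50.5 to 132).

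Cyp2b9, the most abundant Cyp2b member in both diets, measured 50.5, 103 and 132 FPKM in HFD replicates 1 to 3 and 12.97, 25.1 and 26.9 in BT. Every BT library was below every HFD library and the lowest HFD library was replicate 1. Its mean fell from 95.3 ± 41.4 to 21.7 ± 7.59 (SD, n = 3), 4.40-fold lower with BT. On the log2(FPKM + 1) scale the change was -2.04 ± 0.37 (SE; 95% interval -2.88 to -1.21; limma adjusted p = 0.0148). The call did not hold without a filter on low values (adjusted p = 0.0549, in a fit where 3.19% of all genes passed), without HFD replicate 2 (-1.94; adjusted p = 0.0580) or without BT replicate 1 (-1.73; adjusted p = 0.0564). Fewer genes of the whole table passed there too, 621 without HFD replicate 2 and 173 without BT replicate 1, against 1398 with all libraries.

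Cyp2b13 was lower in BT too, at a far lower level. It measured 0.199, 0.987 and 3.73 FPKM in HFD and 0.107, 0.174 and 0.189 in BT, so the diets did not overlap, but HFD replicate 1 lay just above the highest BT library. HFD replicate 3 held most of the HFD signal. These levels come from few fragments, an estimated 5.9, 25.5 and 109.1 in HFD and 2.9, 4.9 and 5.0 in BT. The mean over all libraries was 0.898 FPKM, so Cyp2b13 was not tested. Its difference was -0.96 on the log2(FPKM + 1) scale and, with a pseudocount of 0.1, -2.08. On the first scale it was -0.42 without HFD replicate 3 and -1.41 without HFD replicate 1. A fit without the filter gave an adjusted p of 0.271.

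Cyp2b10, the CAR reporter, was low in both diets. It measured 1.23, 0.329 and 0.656 FPKM in HFD and 0.723, 0.495 and 0.751 in BT, and the BT values lay inside the HFD range. The means were 0.739 ± 0.457 and 0.657 ± 0.140 (SD, n = 3), with an estimated 8.7 to 37.4 fragments per library. The difference on the log2(FPKM + 1) scale was -0.04 (0.16 without HFD replicate 1), and the fit without the filter gave a 95% interval of -0.49 to 0.41 and an adjusted p of 0.917. Both means were below the 1 that is added before the log, so this scale shrinks a fold change. The interval is therefore not one of fold change in FPKM. A change within it could not be detected with 3 libraries per diet at this depth.

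Cyp2a5 was the most abundant member on average in both diets, and it moved the other way from Cyp2b9. It measured 591, 621 and 377 FPKM in HFD and 965, 1234 and 1083 in BT. Each BT library was above each HFD library, and HFD replicate 3 was the lowest of all. The mean rose from 529.8 ± 133 to 1094 ± 135 (SD, n = 3), 2.07-fold higher with BT. The log2 change was 1.07 ± 0.20 (SE; 95% interval 0.62 to 1.52; limma adjusted p = 0.0154). It did not pass without the filter (adjusted p = 0.0541), without BT replicate 1 (1.16; adjusted p = 0.0533) or without BT replicate 2 (0.98; adjusted p = 0.0584). Over all genes 173 passed without BT replicate 1 and 324 without BT replicate 2, against 1398 with all libraries.

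Cyp2a4, with nearly the same coding sequence as Cyp2a5, was lower in BT on average and did not pass the test. It measured 2.48, 16.4 and 27.5 FPKM in HFD and 1.22, 4.26 and 2.26 in BT. HFD replicate 1 fell inside the BT range, and HFD replicates 2 and 3 were above every BT library. The means were 15.5 ± 12.5 and 2.58 ± 1.55 (SD, n = 3). The log2 change was -1.84 ± 0.68 (SE; 95% interval -3.39 to -0.28; limma adjusted p = 0.104). The value depended on single libraries: without HFD replicate 1 the change was -2.73 with an adjusted p of 0.0104, while without HFD replicate 3 it was -1.21. Exons of the antisense gene Gm42375 cover 3.51% of the exon bases of Cyp2a4.

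Because reads could be split between copies, Cyp2a4 was also summed with Cyp2a5, and the 3 Cyp2b genes with each other. Cyp2a12 and Cyp2a22 were not summed. Cyp2a4 and Cyp2a5 together had a log2 change of 1.03 ± 0.18 (SE; adjusted p = 0.0147 in the fit across all genes). The 3 Cyp2b genes together had one of -2.02 ± 0.36 (SE; adjusted p = 0.0145). Each sum had the direction of its most abundant gene, which made up most of it in every library. In HFD replicate 3, for example, Cyp2a5 was 377 of 404 FPKM. The sums therefore tell nothing of Cyp2a4 or Cyp2b13.

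Cyp2a12 and Cyp2a22 did not pass the test. Cyp2a12 measured 454, 500.2 and 482 FPKM in HFD and 499, 548 and 514 in BT, with the smallest ratio of highest to lowest library of the 7 members in HFD. The diets overlapped by a little, with a log2 change of 0.12 ± 0.10 (SE; 95% interval -0.11 to 0.35; limma adjusted p = 0.436). An interval this narrow leaves out changes as large as that of Cyp2a5. Cyp2a22 measured 28.1, 58.4 and 68.1 FPKM in HFD and 27.7, 43.4 and 40.6 in BT. HFD replicate 1 was as low as the lowest BT library. Its log2 change was -0.39 ± 0.31 (SE; 95% interval -1.10 to 0.31; limma adjusted p = 0.407), and without HFD replicate 1 it was -0.77 with an adjusted p of 0.0427.

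**Figure D3:**
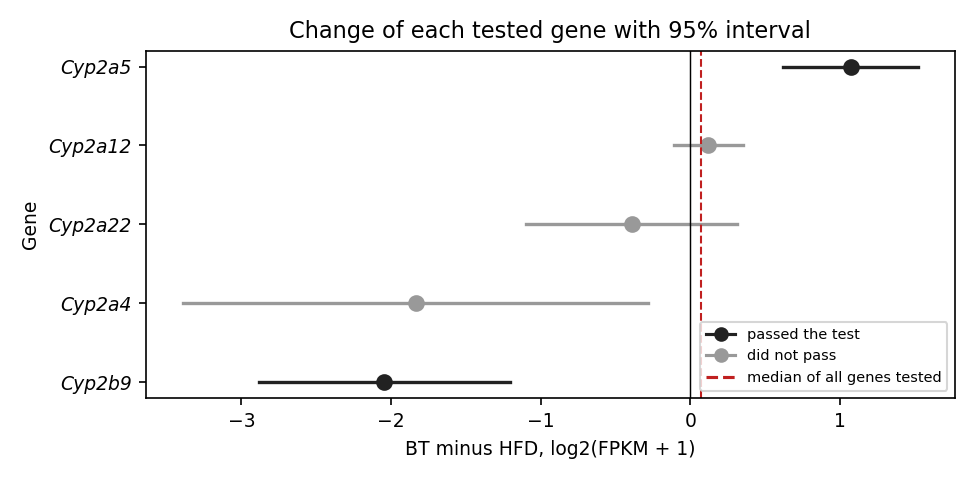
Change of the 5 tested members on the log2(FPKM + 1) scale, BT minus HFD, with 95% intervals from limma, black where the adjusted p passed, and a dashed line at the median of all genes tested (0.07). The interval of Cyp2b9 (-2.88 to -1.21) lies below 0, that of Cyp2a5 (0.62 to 1.52) above it, that of Cyp2a4 (-3.39 to -0.28) lies below 0 without passing after adjustment, and those of Cyp2a12 and Cyp2a22 cross 0.

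In HFD the order of mean levels was Cyp2a5, Cyp2a12, Cyp2b9, Cyp2a22, Cyp2a4, Cyp2b13 and Cyp2b10. The ranges of Cyp2a5 and Cyp2a12 overlapped there, as did those of Cyp2b9 and Cyp2a22, although Cyp2b9 was above Cyp2a22 in each HFD library. Cyp2b13 and Cyp2b10 overlapped too. In BT the order was Cyp2a5, Cyp2a12, Cyp2a22, Cyp2b9, Cyp2a4, Cyp2b10 and Cyp2b13. There Cyp2a5 was clear of Cyp2a12, and the lowest Cyp2a22 library (27.7) lay just above the highest Cyp2b9 library (26.9). The positions of Cyp2b9 and Cyp2a22 thus switched, and so did those of Cyp2b10 and Cyp2b13.

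As a share of the summed FPKM of the 7 genes, Cyp2a5 was 52.4, 47.8 and 34.5% in HFD and 64.1, 66.5 and 64.9% in BT. Its share was higher in each BT library, and it varied little among them. Cyp2a12 took 41.0 ± 2.92% in HFD and 31.2 ± 1.82% in BT (SD, n = 3), although its own level hardly differed. Cyp2b9 took 4.48, 7.92 and 12.1% in HFD and 0.861, 1.35 and 1.61% in BT. The shares of Cyp2a22 were 4.41 ± 1.88% and 2.20 ± 0.317%. The sum of all 7 was 1128, 1301 and 1090.5 FPKM in HFD and 1507, 1856 and 1668 in BT, and the mean of Cyp2a5 differed by more between the diets than the mean of that sum. Shares add to a whole, so a larger share of one gene lowers the others.

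**Figure D4:**
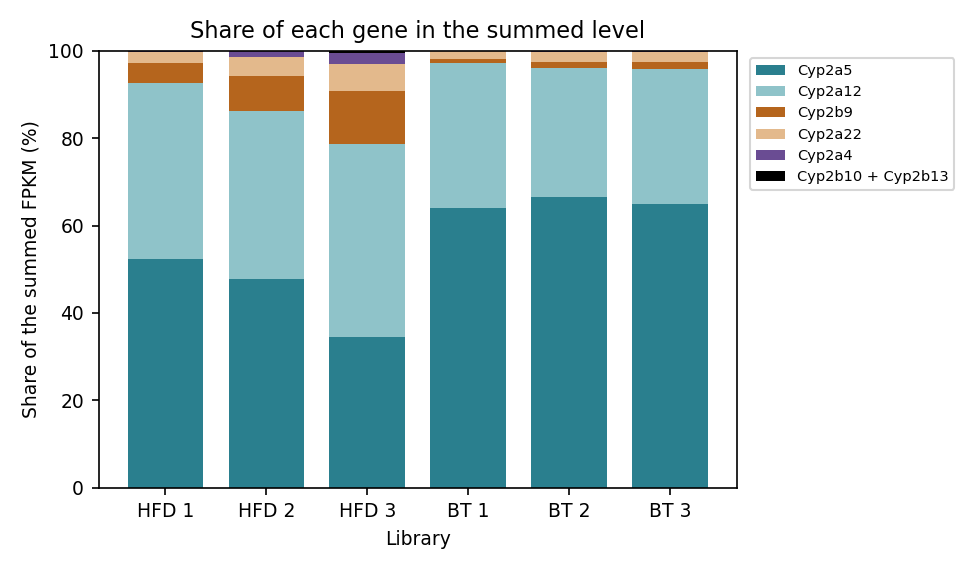
Stacked bars of each member's share (percent) of the summed FPKM of the 7 members, 1 bar per library. Cyp2a5 fills 34.5 to 52.4% of the bar in HFD and 64.1 to 66.5% in BT, and the Cyp2b9 part is 4.48 to 12.1% against 0.861 to 1.61%.

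Differences between pairs of members were tested within libraries for 5 pairs, with an exact two-sided permutation test that cannot go below p = 0.1 with 3 libraries against 3. The ratio of Cyp2a5 to Cyp2b9 was 11.7, 6.03 and 2.85 in HFD and 74.4, 49.2 and 40.2 in BT, with no overlap. The log2 change of Cyp2b9 minus that of Cyp2a5 was -3.12 (exact permutation p = 0.1, adjusted over the 5 pairs 0.167). The ratio of Cyp2a5 to Cyp2a4 was 238, 37.8 and 13.7 in HFD and 792, 289.9 and 480.3 in BT. HFD replicate 1 came close to BT replicate 2, and the change of Cyp2a4 minus that of Cyp2a5 was -2.91 (exact permutation p = 0.1, adjusted 0.167). For the other pairs the change of the second gene was taken from that of the first. Cyp2b9 and Cyp2b13 differed by -1.09 with no overlap (exact permutation p = 0.1, adjusted 0.167), but with a pseudocount of 0.1 by -0.011 (exact permutation p = 0.9). The FPKM ratio of Cyp2b9 to Cyp2b13 was 253, 104 and 35.4 in HFD and 121, 144 and 143 in BT, so it overlapped between the diets and no unequal change of this pair was shown. Cyp2a12 and Cyp2a22 differed by 0.51 (exact permutation p = 0.3, adjusted 0.375). Cyp2b9 and Cyp2a4 differed by -0.21 (exact permutation p = 0.9, adjusted 0.9), and that sign turned without HFD replicate 1 (0.29). None of the 5 pairs could pass the threshold in this design.

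The 3 HFD libraries were not alike for these genes. HFD replicate 1 held the lowest HFD value of 5 of the 7 members, and of 4 of the 5 tested ones, where the same library was lowest in 35.1% of all genes tested. HFD replicate 3 held the highest HFD value of 4 members, and of 43.0% of all genes tested. Among BT libraries, replicate 1 held the lowest value of 6 of the 7 members and of 39.5% of all genes tested. Summed stellate cell and fibroblast markers ran from 84.4 to 139 FPKM in HFD and from 61.7 to 82.0 in BT, with Lrat at 0 throughout. Col3a1, a fibrillar collagen of that list, measured 7.15, 14.3 and 19.6 FPKM in HFD and 2.94, 4.29 and 6.23 in BT, the library order of Cyp2b9 in each diet. Col1a1 and Dcn of the list kept that order. Des did not, at 1.50, 4.16 and 2.00 FPKM in HFD and 1.54, 1.62 and 1.38 in BT. BT replicate 3 held the highest BT value of 48.1% of all genes tested. The part of stellate cells and fibroblasts in the Cyp2b9 result was not tested.

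Of the 17 regulators and cofactors of CAR and PXR on the list, all were tested, 2 rose, 1 fell and the median log2 change was 0.20. The share to set beside this count and those of the lists below is that over all genes tested. There 13.3% passed, 6.01% higher and 7.33% lower. Nr1i3, which encodes CAR, measured 260, 283 and 282 FPKM in HFD and 493, 547 and 545 in BT, so the diets were well apart. Its log2 change was 0.94 ± 0.10 (SE; limma adjusted p = 0.00351), and it passed with each library left out. Exons of Tomm40l cover 74.9% of the exon bases of Nr1i3, and no strand setting is given, so reads from the 2 genes cannot be told apart there. Nr1i2, which encodes PXR, measured 35.1 ± 1.14 and 38.6 ± 3.31 FPKM (SD, n = 3) with an adjusted p of 0.403. Cebpa, a C/EBP factor of hepatocytes, fell by 0.46 (adjusted p = 0.0191), a call that did not hold with TPM, with the trend on length and GC content removed, or with any of the 3 BT libraries left out. The count for the list was 1 without BT replicate 2.

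P450 enzymes need electrons and haem, and 2 of the 15 genes of that supply rose and 0 fell with limma, with a median of -0.11. Over all genes tested 13.3% passed, so the count was near the share of all genes. Por, the reductase that passes electrons to all microsomal P450 enzymes, rose by 1.03 ± 0.11 (SE; limma adjusted p = 0.00306), from 125, 122 and 129 FPKM in HFD to 259, 284 and 230 in BT. Alas1, the first enzyme of haem synthesis, measured 360, 419 and 498 FPKM in HFD and 776, 1030 and 537 in BT, and rose by 0.84 ± 0.23 (adjusted p = 0.0458). BT replicate 3 lay close to the highest HFD library, and Alas1 passed in 1 of the 6 fits with a library left out. It also did not pass with no filter, with median-of-ratios scaling, with no variance trend or with the length and GC trend removed. The count dropped to 1 without HFD replicate 2 or 3 or BT replicate 1 or 2, and it was 4 (3 higher, 1 lower) without HFD replicate 1.

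Among 27 other CAR and PXR targets tested, 7 rose and 3 fell, with a median of 0.31. The fallers were glutathione transferases Gstm3 (-1.79; adjusted p = 0.00644) and Gstm1 (-1.05; adjusted p = 0.0127) and the efflux pump Abcc3 (-0.48; adjusted p = 0.0309). Risers included the sulfate donor synthase Papss2 (0.56; adjusted p = 0.0127), Cyp3a13 (0.66; adjusted p = 0.0129) and the canalicular pump Abcc2 (0.98; adjusted p = 0.0296). Gstm3 passed with each library left out, Gstm1 and Cyp3a13 in 5 of the 6 such fits, Papss2 in 4, Abcc3 in 2 and Abcc2 in 1. The known targets thus did not share one direction, as the Cyp2a and Cyp2b members did not. The count was 16 without HFD replicate 1, but 5 without HFD replicate 2 and 1, 3 and 6 without BT replicates 1, 2 and 3.

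Of 10 listed neighbours of the members on chromosome 7, 4 were tested and 0 passed with limma. Their median log2 change was -0.05. Over all genes tested 13.3% passed, so 4 genes are too few to set apart from that share. Cyp2f2, a P450 that lies in the same cluster, measured 149 ± 18.5 FPKM in HFD and 136 ± 2.23 in BT (SD, n = 3; log2 change -0.12; adjusted p = 0.476). Cyp2b19 and Cyp2b23 are listed at 0 in all 6 libraries.

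Cyp2b9, Cyp2b13 and Cyp2a4 are female-predominant, so other sex-biased liver genes were set beside them. Of 12 female-biased genes tested, without the members, 1 rose and 1 fell, near the 13.3% of all genes tested that passed. The median was 0.05, a value near 0 whose sign was not stable. It was below 0 with median-of-ratios scaling (-0.01), without the trend on length and GC content (-0.06), without the filter (-0.03) and without BT replicate 3 (-0.03), and 0.11 without BT replicate 1. Cyp17a1, a steroid-synthesis enzyme, fell from 15.1, 22.1 and 35.4 FPKM to 6.99, 7.86 and 8.52 (-1.44; limma adjusted p = 0.0144), in the HFD library order of Cyp2b9. Acot3, an acyl-CoA thioesterase, rose by 0.73 (adjusted p = 0.0151). Hao2, a peroxisomal oxidase, was too low for the test, at 0.805, 0.939 and 2.78 FPKM in HFD and 0.0351, 0.243 and 0.187 in BT. Cyp3a41a, Cyp3a41b and Sult2a1 are listed at 0 throughout. Neither call passed without BT replicate 1, and Cyp17a1 did not pass without the filter.

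Of 23 male-biased genes tested, 6 rose and 0 fell with limma, and the median was 0.67. Over all genes tested 6.01% passed higher and 7.33% lower. Serpina1e, a protease inhibitor, measured 110, 80.5 and 26.5 FPKM in HFD and 553, 254 and 153 in BT (2.15; limma adjusted p = 0.0414). The other calls were Cyp4a12a (0.82; adjusted p = 0.0244), C4a (0.75; adjusted p = 0.0284), Ugt2b1 (0.80; adjusted p = 0.0458), C6 (0.90; adjusted p = 0.0468) and C8a (0.48; adjusted p = 0.0495). All lay close to the threshold, and the count was 0 if BT replicate 1 or 2 was left out, 1 if HFD replicate 2 and 3 if BT replicate 3. Without HFD replicate 3 it was 2 (1 higher, 1 lower) and without HFD replicate 1 it was 11 (10 higher, 1 lower). It was 1 with median-of-ratios scaling, 2 without the length and GC trend, 3 with no variance trend and 0 with no filter. Calls over all genes also dropped, from 1398 to 173 without BT replicate 1 and to 324 without BT replicate 2. Slco1a1, a strongly male-biased transporter, measured 42.9, 6.93 and 2.16 FPKM in HFD and 55.6, 48.5 and 41.1 in BT (2.25; adjusted p = 0.0864), so it did not pass. The list did not share one direction. Bcl6 (-0.98; limma adjusted p = 0.109), Elovl3 (-0.72; adjusted p = 0.179), Gstp1 (-0.41; adjusted p = 0.0662) and Mup20 (-0.14; adjusted p = 0.724) were lower in BT without passing. In 17 of the 23 the highest HFD value was in replicate 1, the library where 4 of the 5 tested members were lowest, against 28.8% of all genes tested. Pericentral genes showed the same, with 10 of 13 highest in HFD replicate 1.

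**Figure D5:**
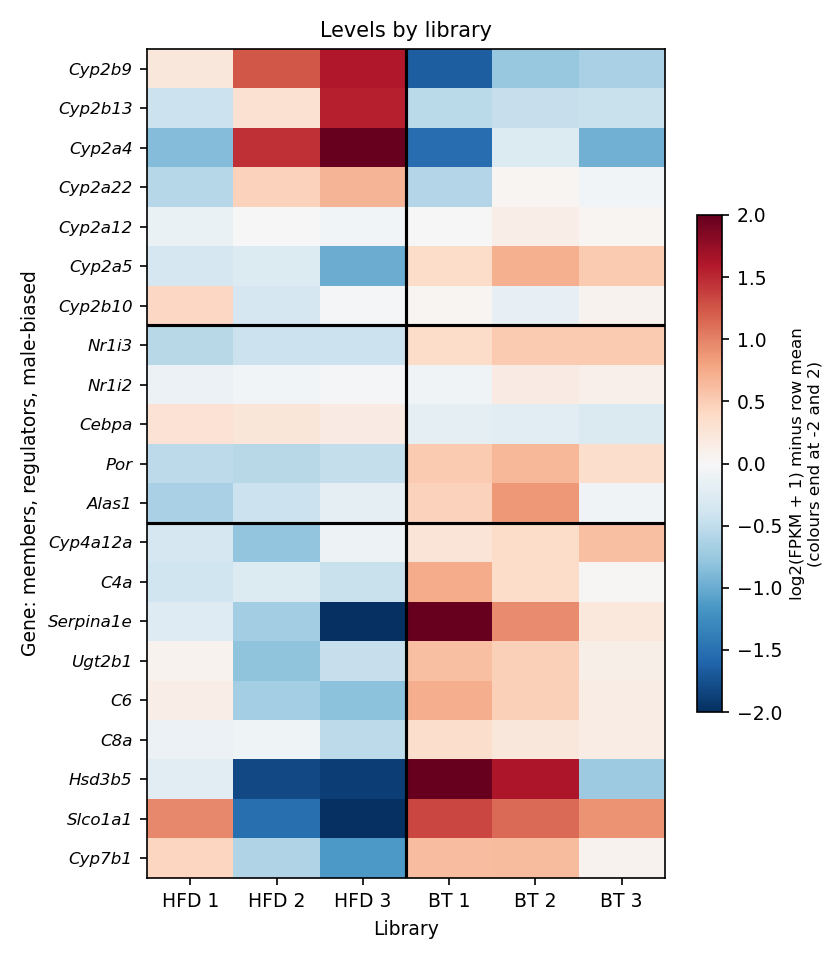
Heat map of log2(FPKM + 1) minus the row mean for the members, for chosen regulators and partners, and for chosen male-biased genes (rows) in the 6 libraries (columns). The male-biased rows shown were all higher in BT on average. Bcl6, Elovl3, Gstp1 and Mup20 of that list were lower on average and are not shown. HFD replicate 1 differs from HFD replicates 2 and 3 in Cyp2a4 (2.48 against 16.4 and 27.5 FPKM) and, in the other direction, in Slco1a1 (42.9 against 6.93 and 2.16).

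Cyp2a5 is known to be strongest in hepatocytes around the central vein. Of 13 pericentral genes 1 rose and 0 fell with limma, with a median of 0.25. The share that passed over all genes tested was 13.3%, so the count did not exceed it. Cyp1a2, a pericentral P450, rose by 0.77 (limma adjusted p = 0.0249). Cyp2e1, another, had a change of 0.53 and an adjusted p of 0.0501. The count was 3 when HFD replicate 1 was left out and 0 when HFD replicate 2, BT replicate 1 or BT replicate 2 was.

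The genes whose levels ran most like each tested member over the 6 libraries were taken by Pearson's r of log2(FPKM + 1), as a description, since the points share libraries and diets. For Cyp2b9 they were Dpt (0.997), Wfdc2 (0.995) and Gal3st1 (0.994). For Cyp2a4 they included Tsc22d4 (0.988) and Col6a1 (0.987). For Cyp2a5 they were Zc2hc1c (0.997), Aspscr1 (0.992) and Syngr2 (0.983). Cyp2a12 ran most like Calcoco1 (0.993), Taok2 (0.985) and Ddx47 (0.983). Cyp2a22 ran most like Tbc1d7 (0.996), Tbc1d19 (0.984) and Ptprs (0.983).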

How the data were processed

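Per the labels' protocols, TruSeq libraries were made from liver mRNA. The 3 HFD and 3 BT libraries were analysed. The authors deposited FPKM for 23474 Ensembl mouse genes, with a column for each library. STAR 2.4.0, Cufflinks 2.1.1 and CASAVA 1.8.2 appear in the submitters' processing notes, which state neither order nor role. The sources used here give no genome build, annotation or strand setting. GENCODE M21 (GRCm38) named 22671 identifiers and left 803 unnamed, and gave positions, exon overlaps, and transcript and coding sequences. Its build may not be the authors'. Upstream sequences are RefSeq's (GRCm38.p6), with an entry for all 7 members.

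Values were tested as log2(FPKM + 1) with limma 3.58.1 in R 4.3.3 (trend of variance on mean, two-sided), over the 10476 genes averaging 1 FPKM or more, with Benjamini-Hochberg adjustment and a threshold of 0.05. Adjusted p-values of genes come from this fit or a named alternative of it. Groups come from the sample titles. The scripts were tested on simulated data.

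The members and lists were chosen with earlier results of these data known. Named were all members, the genes of each list past the threshold (the 6 with the smallest p where there were more) with Nr1i3, Nr1i2, Por and Alas1, and the 3 genes most correlated with each tested member. Col3a1, Col1a1, Dcn, Des, Hao2, Slco1a1, Cyp2f2, Cyp2e1 and the genes listed at 0 were named after their values were seen. So were Bcl6, Elovl3, Gstp1, Mup20, Adipoq, Cfd, Plin1 and Cela1. Results of some genes are not reported here, while counts include them.

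No counts came with the table. Depth was estimated from the median of FPKM times length in kilobases between 0.03 and 0.1 in genes with 1 transcript over 1000 bases, which is rough. A 0 can be a failed estimate, since HFD replicate 3 lists Alb at 0 and the other libraries list it at 22791 to 27895 FPKM. Alternatives were a pseudocount of 0.1, no filter, a filter of 5 FPKM, rescaling to TPM, median-of-ratios and quantile scaling, no variance trend, robust empirical Bayes, a replicate block, removal of the trend on transcript length and GC content, summed copies, and leaving out each library. Python 3.11.15, Biopython 1.88 and matplotlib 3.10.9 were used.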

Additional observations from a re-analysis of the deposited data

How the results depend on the processing

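Cyp2b9 kept its direction under every alternative run, but without a filter on low values it lost its call (-2.04; adjusted p = 0.0549), and over the libraries left out it ranged from -2.44 to -1.73. Cyp2a5 did the same without a filter (1.07; adjusted p = 0.0541), with a range of 0.84 to 1.20. Without a filter 17095 genes entered the adjustment and 3.19% passed. Cyp2a4 ranged from -2.73 to -1.21, passed with a replicate block (-1.84; adjusted p = 0.0231), and in the sum with Cyp2a5 the sign was that of Cyp2a5 (1.03). Cyp2a22 ranged from -0.77 to -0.15 and Cyp2a12 from 0.08 to 0.15 over the libraries left out. The difference between Cyp2b9 and Cyp2a4 turned with a pseudocount of 0.1 (0.054) and ranged from -0.54 to 0.29. Of all genes, 1398 passed, and 545 without a filter (200 higher, 345 lower). With the length and GC trend removed, 399 were higher. With 1 library left out, 173 to 1536 passed, 49 to 855 of them higher and 124 to 814 lower. Of the genes in the lists beside the members 24 passed, 9 without a filter, 15 with median-of-ratios scaling, 41 with the replicate block (14 instead of 6 of the male-biased genes) and 4 to 40 with 1 library left out. The replicate numbers were not taken to pair libraries, since the labels do not say that they do. Deviations of same-numbered libraries correlated at 0.163, 0.0972 and 0.147, and each library correlated best with its own number. Whether the libraries are paired thus stays unknown. With the block 1808 genes passed, among them Cyp2b9 (limma adjusted p = 0.00111) and Cyp2a5 (limma adjusted p = 0.00866). The causes of these shifts were not tested. Cyp2b10 and Cyp2b13 rest on few estimated fragments, and with 3 libraries per diet the exact test of a pair cannot go below 0.1.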
